A study of Mus musculus with 12 samples.

Results

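The 3 D-type cyclin genes and the 7 genes of the CDK inhibitor families, 10 of the 55401 genes listed, were followed across all 12 samples of cultured adult neural stem/progenitor cells (aNSPCs). They were taken by gene name: Ccnd1, Ccnd2 and Ccnd3 (cyclins), Cdkn1a, Cdkn1b and Cdkn1c (CIP/KIP inhibitors), and Cdkn2a, Cdkn2b, Cdkn2c and Cdkn2d (INK4 inhibitors). aNSPCs were isolated from the forebrain of C57BL/6 mice aged 8 to 10 weeks and expanded in medium with 20 ng/mL EGF and 20 ng/mL FGF-2. RNA-seq covered 4 groups of 3 samples. Proliferating Ctrl cells and proliferating NAD+ cells (1 mM NAD+) received no inducer, whereas differentiation Ctrl cells and differentiation NAD+ cells (1 mM NAD+) received 1 µM retinoic acid and 5 µM forskolin. All groups share the strain and carry no allele or transgene named in the sources, and it is not stated how long the RNA-seq cells were exposed or whether the growth factors stayed in the differentiation medium. The study describes the samples of a group as biological repeats without naming separate cultures or mice, so p-values measure the spread between these samples, which may be in part technical. A label field lists all 12 samples as untreated, and the groups used here follow the sample titles.

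D-type cyclins are made when growth factors act on a cell. They bind CDK4 and CDK6, and these kinases phosphorylate RB, which frees E2F factors to switch on the genes of DNA replication. INK4 inhibitors bind CDK4 and CDK6 themselves, whereas CIP/KIP inhibitors bind cyclin-CDK complexes and act mainly on CDK2. In neural stem cells these families are known to set how often progenitors divide and when they leave the cycle, and the Cdkn2a locus is known to limit self-renewal in ageing brain.

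Values are FPKM (reads per gene corrected for gene length and library total), which allows levels to be set side by side between genes. Sequencing depth cannot be read from FPKM values rounded to 0.01. FPKM summed to between 308828 and 349649 in 11 samples and to 363330 in proliferating Ctrl replicate 1, which stood apart and held the lowest value of its group for all 3 cyclins and the highest for all 7 inhibitors. Neural stem/progenitor markers (6 of 6 detected) summed to between 2590 and 2842 FPKM in proliferating Ctrl, 1582 and 2098 with NAD+, 735 and 823 in differentiation Ctrl and 731 and 814 in differentiation NAD+. Astrocyte markers (5 of 5) summed to 267 to 360, 217 to 323, 826 to 920 and 1217 to 1255 FPKM in the same order, oligodendrocyte lineage markers (6 of 6) to 375 to 409, 320 to 352, 326 to 364 and 218 to 238, and neuron markers (5 of 5) to between 21.2 and 34.5 over all 12 samples. Such sums can hide single genes that moved the other way. By the limma test described below, 4 of the 6 oligodendrocyte lineage markers were higher in differentiation and 1 lower, in Ctrl and with NAD+. Of the 5 neuron markers 2 were higher in Ctrl and 3 with NAD+, and 0 were lower. Over all genes 25% and 20.8% were higher. For NAD+ against Ctrl, 0 markers of these lists were called under proliferating conditions (0.145% of all genes). Under differentiation conditions 1 stem/progenitor marker was higher and 2 were lower, and 2 astrocyte markers were higher and 1 lower. Of the oligodendrocyte lineage markers 0 were higher and 2 lower there, and 0 neuron markers were called. Over all genes 2.27% were higher and 4.65% lower. Of the microglia and blood markers and of the endothelial markers, 3 of 5 and 3 of 4 stayed under 0.1 FPKM in all 12 samples, and the summed levels of both lists and of mural and fibroblast markers stayed at or below 1.28. One label says that RNA came from brain samples, whereas the markers of brain vessels and microglia were near 0 here.

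The test was limma's, fitted to log2(FPKM + 0.1), which understates how far low genes move, and genes were called at an adjusted p-value (Benjamini-Hochberg over all genes tested) under 0.05. All 10 genes passed the filter of a mean FPKM of 0.1 in every fit. Differentiation against proliferating conditions gave the largest differences. In Ctrl cells 5 of the 10 genes were called, all lower in differentiation (Ccnd1, Ccnd2, Cdkn2a, Cdkn2c and Cdkn2d), where 56.7% of all tested genes were called, 31.6% lower and 25% higher. With NAD+ 7 were called lower, those 5 with Cdkn1a and Cdkn1c, and Cdkn1b was called higher, where 58.4% of all genes were called, 37.6% lower and 20.8% higher. With NAD+ 5 also had means more than 2-fold apart at an unadjusted p under 0.05, against 33.4% of all genes. Most genes moved between the conditions, so counts among 10 genes say little, though the calls leaned to lower. The median log2 fold change over the 10 genes was -0.87 in Ctrl and -1.10 with NAD+, against -0.06 and -0.20 over all genes tested. In Ctrl that median lies between -0.47 (Cdkn1c, not called) and -1.26 (Cdkn2a, called), so it is not a typical size. These comparisons cross the tables of the proliferating and the differentiation samples, and whether the tables were scaled together is not stated. Median-ratio scaling raised the median of all genes by 0.12 in Ctrl and by 0.26 with NAD+, and moved the share of higher genes among those called with NAD+ from 35.6% to 51%.

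NAD+ against Ctrl gave few calls, though Ccnd3 was 2.40-fold higher under proliferating and Cdkn1c 1.99-fold lower under differentiation conditions. Under proliferating conditions 0 of the 10 genes were called by limma, where 0.145% of all genes were called. Of the 10, 4 had an unadjusted p-value under 0.05 (15.4% of all genes), and 1, Ccnd3, also had a ratio of means above 2 (3.01% of all genes). NAD+ samples did not overlap Ctrl samples in 5 genes, with 3 higher (Ccnd1, Ccnd2 and Ccnd3, against 15.5% of all genes) and 2 lower (Cdkn1b and Cdkn1c, against 8.59%). Under differentiation conditions 1 of 10, Cdkn1c, was called, lower with NAD+, where 6.92% of all genes were called, 4.65% lower and 2.27% higher. An unadjusted p under 0.05 was seen in 2, Cdkn1a and Cdkn1c (24.2% of all genes), and 0 also had a ratio of means above 2 or under its inverse (4.05%). Cdkn2a was higher and Cdkn1c lower with no overlap of the groups, as were 9.68% and 21.1% of all genes. Of all genes called in that comparison 32.8% were higher with NAD+, or 53.5% after median-ratio scaling. The median log2 fold change of NAD+ over the 10 genes was 0.22 under proliferating and 0.02 under differentiation conditions, against 0.07 and -0.08 over all genes.

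**Figure D1:**
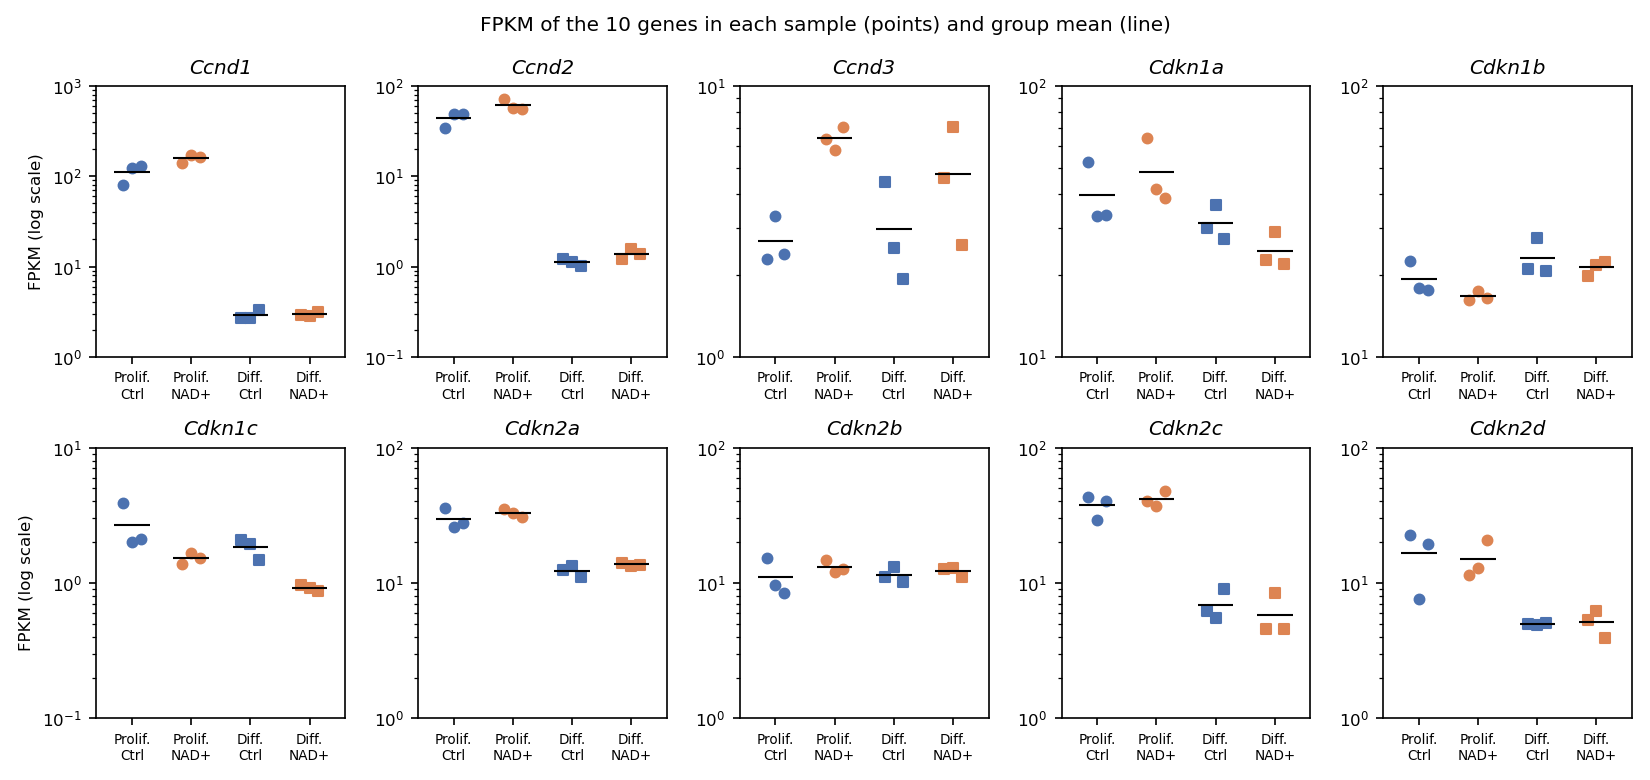
FPKM on a log axis (y) in each of the 4 groups (x) for the 10 genes, with 1 point a sample and a line at the group mean. Ccnd1 lies between 79.92 and 170.87 in the proliferating samples and between 2.70 and 3.32 in the differentiation samples, whereas Cdkn1b stays between 16.26 and 27.39 throughout.

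Ccnd1 encodes cyclin D1, the D-type cyclin most tied to growth factor signalling. It lies on the minus strand of chr7:144929931-144939925 (mm10) and was the most abundant of the 10 genes in each proliferating sample. Ccnd1 stood at 79.92, 122.54 and 128.82 FPKM in proliferating Ctrl, 138.60, 170.87 and 164.41 in proliferating NAD+, 2.70, 2.71 and 3.32 in differentiation Ctrl, and 2.89, 2.82 and 3.13 in differentiation NAD+. Every differentiation sample was far below every proliferating sample. In Ctrl the level was 37.9-fold lower in differentiation (log2 fold change -5.17, SE 0.16, limma adjusted p = 2.95e-09), and with NAD+ 53.6-fold lower (log2 fold change -5.69, SE 0.16, adjusted p = 1.47e-09). Fewer cells of a type and less RNA per cell cannot be told apart in bulk samples. All 10 division markers measured (such as Mki67 and Ccnb1, which mark cycling cells) were lower in the same comparison, as described with the RB pathway, and their part in the cyclin values was not tested.

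Under proliferating conditions all NAD+ samples held more Ccnd1 than all Ctrl samples. The log2 fold change was 0.54 (SE 0.19, adjusted p = 0.269), which did not pass, and it was 0.32 without proliferating Ctrl replicate 1. Under differentiation conditions the groups overlapped, with a log2 fold change of 0.02 (95% CI -0.25 to 0.29). The difference between the NAD+ effects of the conditions was -0.52 on the log2 scale (95% CI -1.03 to -0.01, adjusted p = 0.319) and was not called. LTO1, a gene on the opposite strand, shares 1100 exon bases with Ccnd1 (23.4% of its exons), and whether reads were counted by strand is not stated. LTO1 had a mean of 1.34 FPKM in proliferating Ctrl and 0.963 in differentiation Ctrl.

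Ccnd2 encodes cyclin D2, known in the brain for its part in the divisions of neural precursors, and lies on the minus strand of chr6:127125162-127152193. Its FPKM values were 34.11, 49.40 and 49.52 in proliferating Ctrl, 71.83, 57.38 and 56.23 in proliferating NAD+, 1.22, 1.11 and 1.02 in differentiation Ctrl, and 1.22, 1.58 and 1.36 in differentiation NAD+. The 2 culture conditions were again fully separate. Ccnd2 was 39.7-fold lower in differentiation in Ctrl (log2 fold change -5.17, SE 0.16, adjusted p = 2.46e-09) and 44.6-fold lower with NAD+ (log2 fold change -5.38, SE 0.16, adjusted p = 1.56e-09). NAD+ samples were all above Ctrl samples under proliferating conditions, with a log2 fold change of 0.49 (SE 0.17, adjusted p = 0.267) that was not called and was 0.31 without proliferating Ctrl replicate 1. Under differentiation conditions the log2 fold change of NAD+ was 0.29 (95% CI -0.07 to 0.64, adjusted p = 0.296), and the highest Ctrl value equalled the lowest NAD+ value.

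Ccnd3 encodes cyclin D3, a D-type cyclin found in many differentiated tissues, and lies on the plus strand of chr17:47505051-47599691. It stood at 2.30, 3.31 and 2.40 FPKM in proliferating Ctrl, 6.38, 5.78 and 7.06 in proliferating NAD+, 4.43, 2.53 and 1.93 in differentiation Ctrl, and 4.57, 7.03 and 2.59 in differentiation NAD+. All proliferating NAD+ samples were above all proliferating Ctrl samples, whereas the differentiation groups overlapped each other, differentiation Ctrl overlapped proliferating Ctrl but lay wholly below proliferating NAD+, and differentiation NAD+ overlapped both proliferating groups. Unlike Ccnd1 and Ccnd2, Ccnd3 was not called between the culture conditions, with a log2 fold change of 0.08 in Ctrl (95% CI -0.69 to 0.85) and -0.54 with NAD+ (95% CI -1.30 to 0.23, adjusted p = 0.211). Without differentiation NAD+ replicate 2, which held the highest value of its group, the latter was -0.87 and was called (adjusted p = 0.0476, within 0.0476 to 0.679 over the samples left out).

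Under proliferating conditions Ccnd3 was 2.40-fold higher with NAD+, the largest difference of NAD+ among the 10 genes in these cells (log2 fold change 1.25, SE 0.17, unadjusted p = 0.000169). Its adjusted p of 0.0583 missed the threshold. It passed when genes under a mean FPKM of 1 were left out (0.0412) and after quantile normalization (0.0499), within a range of 0.0412 to 0.166 over all alternatives, and it was between 0.0702 and 0.236 with each sample left out in turn, at log2 fold changes of 1.15 to 1.40. Under differentiation conditions the log2 fold change was 0.63 (95% CI -0.39 to 1.65, adjusted p = 0.424), and it ran from 0.29 without differentiation NAD+ replicate 2 to 1.00 without replicate 3 of that group. The NAD+ effects of the conditions were not shown to differ (difference -0.62, 95% CI -1.70 to 0.47, adjusted p = 0.568), and the difference was -0.95 and -0.25 without those samples. Bysl, a ribosome assembly gene on the opposite strand, shares 361 exon bases with Ccnd3 (4.11% of its exons) and had a log2 fold change of 0.02 (SE 0.12) with NAD+ in proliferating cells, where Ccnd3 had 1.25. Bysl had a mean of 10.99 FPKM in proliferating Ctrl. It was lower in differentiation (log2 fold change -1.43 in Ctrl and -1.95 with NAD+) and lower with NAD+ under differentiation conditions (-0.50). Whether Bysl reads entered the Ccnd3 values was not tested. The pseudogene Ccnd3-ps stayed at or below 0.08 FPKM.

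The sum of the 3 cyclins therefore changed in make-up as well as in level. Summed D-type cyclin FPKM was 116 to 181 in proliferating Ctrl and 217 to 234 with NAD+, but 6.27 to 8.35 in differentiation Ctrl and 7.08 to 11.4 with NAD+. Ccnd3 made up 1.33% to 1.98% of that sum in proliferating Ctrl, 2.47% to 3.10% in proliferating NAD+, 30.8% to 53.1% in differentiation Ctrl and 36.6% to 61.5% in differentiation NAD+. The ratio of Ccnd1 to Ccnd2 FPKM stayed between 1.78 and 3.25 in all 12 samples, while both fell together. Summed inhibitor FPKM over summed cyclin FPKM was 0.715 to 1.68 in proliferating Ctrl, 0.664 to 0.845 with NAD+, 10.5 to 16.1 in differentiation Ctrl and 8.09 to 11.1 with NAD+. These are shares of RNA, described without a test.

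**Figure D2:**
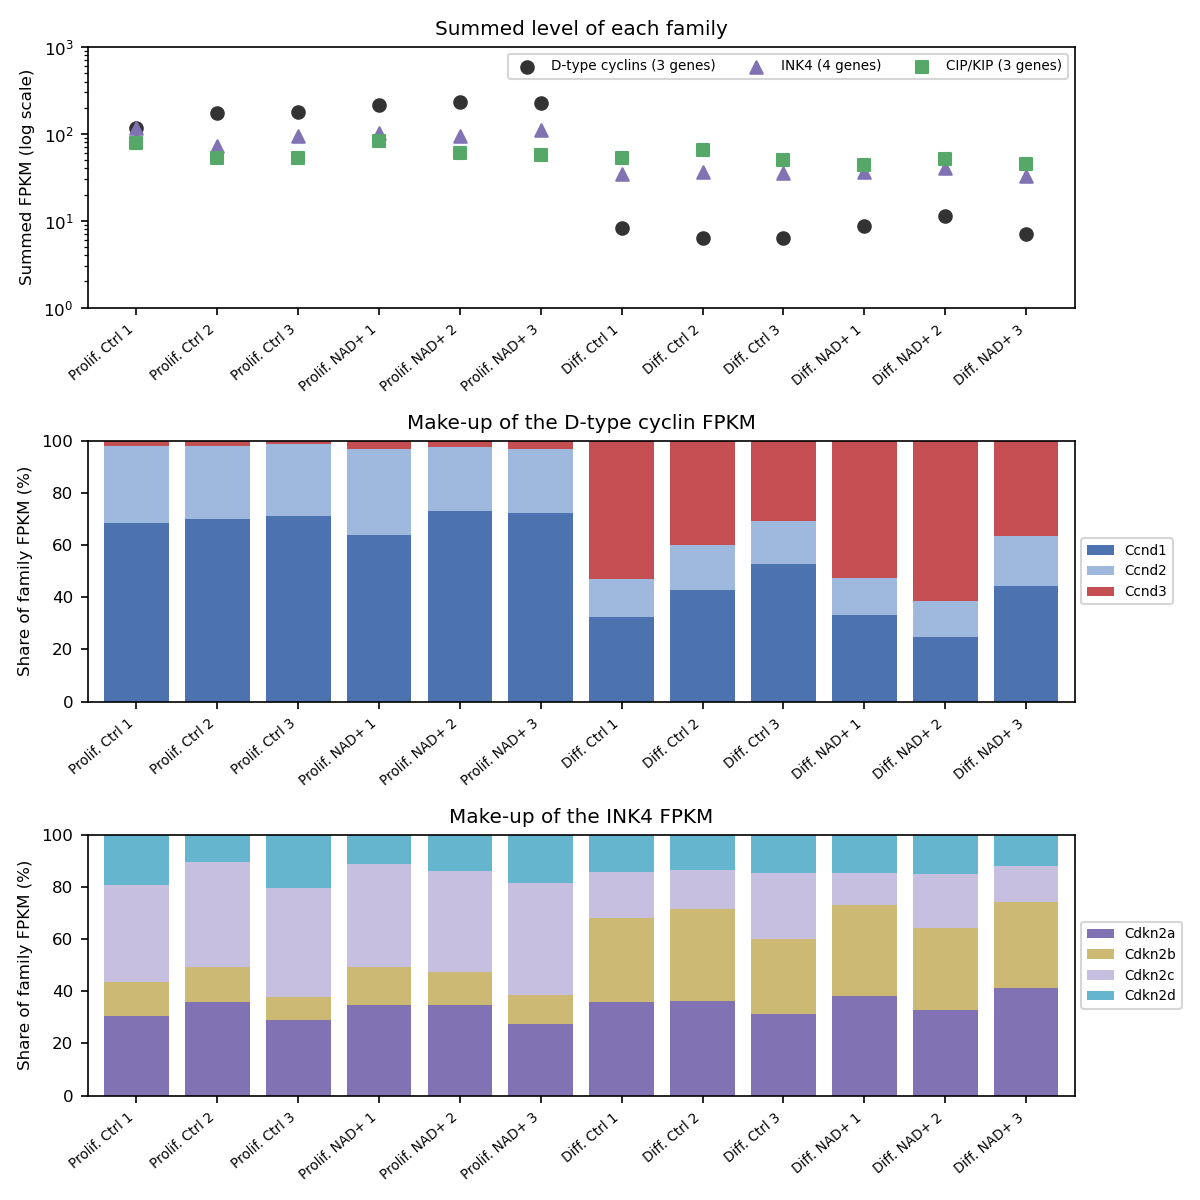
Summed FPKM of each family on a log axis (top) and the share of each gene in the D-type cyclin and INK4 sums (below, bars from 0 to 100%), with 1 position on the x axis for each of the 12 samples. The cyclin sum drops from at least 116 FPKM in proliferating samples to at most 11.4 in differentiation samples, and Ccnd3 takes at least 30.8% of it there.

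**Figure D3:**
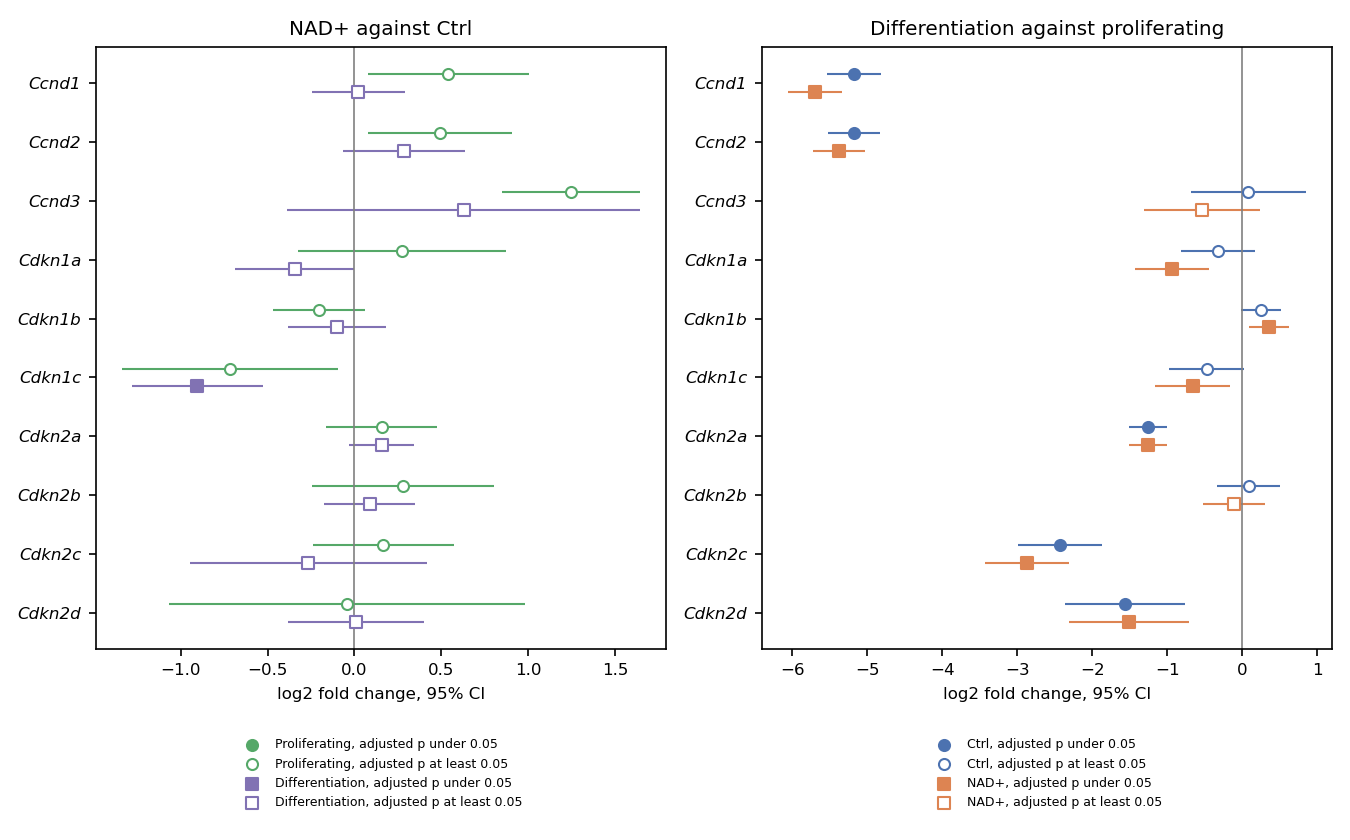
Log2 fold changes (x) with 95% confidence intervals for the 10 genes (y), NAD+ against Ctrl on the left and differentiation against proliferating conditions on the right, filled where the adjusted p was under 0.05. Cdkn1c under differentiation conditions is the only filled point on the left, and Ccnd1 and Ccnd2 lie beyond -5 on the right.

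Cdkn1a encodes p21, the inhibitor that p53 switches on after DNA damage, and lies on the plus strand of chr17:29090976-29100727. Its level was above those of Cdkn1b and Cdkn1c in all samples but differentiation NAD+ replicate 3, where Cdkn1b was slightly higher. Its FPKM values were 52.51, 33.14 and 33.40 in proliferating Ctrl, 64.08, 41.63 and 38.59 in proliferating NAD+, 30.01, 36.37 and 27.31 in differentiation Ctrl, and 22.82, 28.98 and 21.98 in differentiation NAD+. Replicate 1 was the highest sample in both proliferating groups. Between the conditions the Ctrl groups overlapped, whereas the NAD+ groups were separate. Cdkn1a was 1.96-fold lower in differentiation with NAD+ (log2 fold change -0.94, SE 0.22, adjusted p = 0.00383), a call that was kept after median-ratio scaling (-0.66, adjusted p = 0.0372) and lost after quantile normalization (-0.50, adjusted p = 0.0708), within 0.00284 to 0.0708 over the alternatives. In Ctrl it was not called (-0.32, 95% CI -0.81 to 0.17), and quantile normalization gave a value above 0 (0.12). NAD+ gave log2 fold changes of 0.27 under proliferating (adjusted p = 0.619) and -0.34 under differentiation conditions (adjusted p = 0.204), with a difference of -0.62 (95% CI -1.32 to 0.08, adjusted p = 0.372).

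Of 18 genes of p53 and its targets, all tested, 0 were called with NAD+ under proliferating conditions. Of the 18, 7 had an unadjusted p under 0.05 there, against 15.4% of all genes. Under differentiation conditions 2 were called higher, against 2.27% of all genes. They were the DNA damage gene Gadd45a (log2 fold change 1.33, adjusted p = 0.011) and the death receptor gene Fas (0.58, adjusted p = 0.0394). Between the culture conditions 4 were higher and 10 lower in differentiation, both in Ctrl and with NAD+, where 25% and 20.8% of all genes were higher and 31.6% and 37.6% lower. In Ctrl the 3 largest rises were Fas (2.14), Sesn1 (1.03) and Bbc3 (0.79), and the 3 largest falls were Plk2 (-1.77), Pmaip1 (-1.06) and Bax (-0.87), so pro-apoptotic genes stood on both sides. The list's median log2 fold change was -0.35 in Ctrl and -0.70 with NAD+, against -0.06 and -0.20 over all genes.

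Cdkn1b encodes p27, which holds CDK2 inactive in resting cells, and lies on the plus strand of chr6:134920401-134925513. It stood at 22.50, 17.94 and 17.71 FPKM in proliferating Ctrl, 16.26, 17.44 and 16.45 in proliferating NAD+, 21.02, 27.39 and 20.83 in differentiation Ctrl, and 19.84, 21.89 and 22.40 in differentiation NAD+. Its levels moved least of the 10 genes around their own mean over the 12 samples. Cdkn1b was 1.28-fold higher in differentiation with NAD+ (log2 fold change 0.35, SE 0.12, adjusted p = 0.0263), a call lost in 4 of the 6 fits that leave out a sample (adjusted p 0.0292 to 0.0799), those without proliferating NAD+ replicate 1 or 3 or differentiation NAD+ replicate 2 or 3 (0.32 to 0.34). Median-ratio scaling gave 0.63 (adjusted p = 0.00196) and quantile normalization 0.79 (adjusted p = 0.00017) for the same comparison, within 0.00017 to 0.0442 over the alternatives. In Ctrl the value was 0.25 (adjusted p = 0.101), and it was called without proliferating Ctrl replicate 1 (0.36, adjusted p = 0.0205), after median-ratio scaling (0.38, adjusted p = 0.032) and after quantile normalization (0.61, adjusted p = 0.0011), within 0.0011 to 0.144 over the alternatives and 0.0205 to 0.383 over the samples left out. Proliferating NAD+ samples were all below proliferating Ctrl samples, with a log2 fold change of -0.20 (adjusted p = 0.424) and of -0.09 without proliferating Ctrl replicate 1, and under differentiation conditions NAD+ gave -0.10 (adjusted p = 0.653).

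Cdkn1c encodes p57, a growth inhibitor from an imprinted locus that is expressed in quiescent neural stem cells, and lies on the minus strand of chr7:143458339-143461050. Its FPKM values were 3.87, 2.01 and 2.12 in proliferating Ctrl, 1.37, 1.66 and 1.52 in proliferating NAD+, 2.06, 1.94 and 1.48 in differentiation Ctrl, and 0.97, 0.92 and 0.87 in differentiation NAD+. In both conditions every NAD+ sample lay below every Ctrl sample. Under differentiation conditions Cdkn1c was 1.99-fold lower with NAD+ (log2 fold change -0.91, SE 0.16, 95% CI -1.28 to -0.53, adjusted p = 0.0254). The call was kept without differentiation Ctrl replicate 3 (adjusted p = 0.0363) and lost in the 5 other fits that leave out a sample, with an adjusted p of up to 0.0892 and log2 fold changes from -1.04 to -0.82. Over the other alternatives the adjusted p ran from 0.0214 to 0.0524.

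Under proliferating conditions the log2 fold change of Cdkn1c was -0.72 (95% CI -1.34 to -0.09, adjusted p = 0.276), and -0.42 without proliferating Ctrl replicate 1, which alone stood above 3 FPKM. The NAD+ effects of the conditions were not shown to differ (difference -0.19, 95% CI -0.89 to 0.52, adjusted p = 0.808). Between the conditions Cdkn1c was lower in differentiation with NAD+ (log2 fold change -0.66, SE 0.23, adjusted p = 0.0265), a call lost with a pseudocount of 1 (adjusted p = 0.0611), after median-ratio scaling (-0.40, adjusted p = 0.174) and after quantile normalization (-0.58, adjusted p = 0.06), within 0.0224 to 0.174 over the alternatives, and in the 4 fits without proliferating NAD+ replicate 2 or 3 or differentiation NAD+ replicate 2 or 3 (-0.66 to -0.60, adjusted p up to 0.0806). In Ctrl the value was -0.47 (adjusted p = 0.0974). It was called without proliferating Ctrl replicate 2 (-0.64, adjusted p = 0.0441) and was -0.18 without replicate 1 (adjusted p = 0.35), the range over the samples left out. The antisense gene Gm44732 shares 625 exon bases with Cdkn1c (30.7% of its exons) and stayed at or below 0.08 FPKM.

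Of the 4 INK4 genes, Cdkn2a and Cdkn2b are neighbours on the minus strand of chr4, with 11645 bases between them. Cdkn2a (chr4:89274471-89294653) has a pair of start sites. Transcripts from the upstream one encode p19Arf, which acts through p53, and those from the downstream one encode p16Ink4a, which binds CDK4 and CDK6, and a value per gene cannot tell them apart. Cdkn2b (chr4:89306299-89311039) encodes p15, a further inhibitor of CDK4 and CDK6. Cdkn2a and Cdkn2b differed in their response to the culture condition, and the stretches before their start sites are shown here to set the neighbours side by side, with Ccnd3, the gene with the largest NAD+ difference in proliferating cells. Sequences are from RefSeq (GRCm38.p6), up to 250 bases before each start, less the bases that GENCODE M21 places in an exon. They read 5′ to 3′ on the gene's strand, with matches to the motifs searched in capitals.
Cdkn2a, upstream start (chr4:89294654-89294869, minus strand): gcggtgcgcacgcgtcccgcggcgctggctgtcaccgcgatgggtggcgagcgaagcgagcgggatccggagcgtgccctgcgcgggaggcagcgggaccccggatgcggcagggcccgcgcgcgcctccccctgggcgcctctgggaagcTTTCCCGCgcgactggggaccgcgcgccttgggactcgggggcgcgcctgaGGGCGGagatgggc
Cdkn2a, downstream start (chr4:89282193-89282442, minus strand): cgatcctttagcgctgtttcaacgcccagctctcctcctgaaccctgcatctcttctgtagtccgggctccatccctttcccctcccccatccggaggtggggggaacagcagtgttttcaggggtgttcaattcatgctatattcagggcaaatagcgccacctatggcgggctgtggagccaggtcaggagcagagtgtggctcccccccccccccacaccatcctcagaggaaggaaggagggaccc
Cdkn2b (chr4:89311040-89311282, minus strand): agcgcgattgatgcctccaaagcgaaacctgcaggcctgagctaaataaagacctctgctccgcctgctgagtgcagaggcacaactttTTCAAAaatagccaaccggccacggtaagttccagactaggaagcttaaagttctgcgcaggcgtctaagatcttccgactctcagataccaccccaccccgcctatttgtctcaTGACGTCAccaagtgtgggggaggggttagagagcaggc
Ccnd3, upstream start (chr17:47504801-47505050, plus strand): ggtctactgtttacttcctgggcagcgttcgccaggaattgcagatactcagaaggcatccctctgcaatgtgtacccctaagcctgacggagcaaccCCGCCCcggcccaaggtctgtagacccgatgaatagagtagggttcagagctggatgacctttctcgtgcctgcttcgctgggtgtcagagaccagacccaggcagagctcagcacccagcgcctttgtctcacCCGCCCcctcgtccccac

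The motifs were searched on both strands over the 250 bases before 32851 RefSeq starts. E2F sites (TTTCCCGC, TTTCGCGC, TTTGCCGC or TTTGGCGC) were found in 1.86% of them, the GC box (GGGCGG) in 32.7%, the cAMP response element (CRE, TGACGTCA) in 1.55%, the E-box (CACGTG) in 6.02% and the cell cycle homology region (CHR, TTTGAA) in 16%. Over the same 250 bases, the upstream Cdkn2a start had 1 E2F match and 2 GC boxes, of which 1 lies wholly in the stretch printed, the downstream start had 0 of these motifs, Cdkn2b had 1 CRE and 1 CHR, and the upstream Ccnd3 start had 2 GC boxes. A further Ccnd3 start in the table, not printed, had 1 GC box before it. These matches describe the letters and were not tested as sites. Of the 10 genes 7 had a promoter in the table, and Ccnd1, Ccnd2 and Cdkn1c are named only.

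Cdkn2a stood at 35.78, 25.86 and 27.76 FPKM in proliferating Ctrl, 35.38, 32.85 and 30.64 in proliferating NAD+, 12.55, 13.31 and 11.05 in differentiation Ctrl, and 14.00, 13.40 and 13.65 in differentiation NAD+. The lowest proliferating sample was well above the highest differentiation sample. Cdkn2a was 2.42-fold lower in differentiation in Ctrl (log2 fold change -1.26, SE 0.12, adjusted p = 4.51e-06) and 2.41-fold lower with NAD+ (log2 fold change -1.26, SE 0.12, adjusted p = 3.58e-06). The values for NAD+ against Ctrl were 0.16 under both conditions (adjusted p = 0.599 under proliferating and 0.288 under differentiation conditions). With a sample left out they ran from 0.062 without proliferating Ctrl replicate 2 to 0.30 without replicate 1, and from 0.081 without differentiation Ctrl replicate 3 to 0.21 without replicate 2. Under differentiation conditions all NAD+ samples lay above all Ctrl samples, by 1.11-fold in the means.

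Cdkn2b stood at 15.24, 9.69 and 8.42 FPKM in proliferating Ctrl, 14.73, 11.97 and 12.74 in proliferating NAD+, 11.14, 13.01 and 10.22 in differentiation Ctrl, and 12.68, 12.78 and 10.97 in differentiation NAD+. All 4 groups overlapped. Between the conditions the log2 fold change was 0.08 in Ctrl (95% CI -0.33 to 0.50, adjusted p = 0.73) and -0.11 with NAD+ (95% CI -0.53 to 0.30, adjusted p = 0.637). The latter turned to 0.17 after median-ratio scaling and 0.30 after quantile normalization, and the former was 0.33 and called without proliferating Ctrl replicate 1 (adjusted p = 0.0473, within 0.0473 to 0.977 over the samples left out). NAD+ gave 0.28 under proliferating (adjusted p = 0.564) and 0.09 under differentiation conditions (adjusted p = 0.674).

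Cdkn2c encodes p18, an INK4 inhibitor found in dividing progenitors in the brain, and lies on the minus strand of chr4:109660876-109667189. Its FPKM values were 42.98, 29.04 and 40.07 in proliferating Ctrl, 40.01, 36.85 and 48.10 in proliferating NAD+, 6.19, 5.54 and 8.96 in differentiation Ctrl, and 4.59, 8.38 and 4.56 in differentiation NAD+. It was the inhibitor with the largest fall. Cdkn2c was 5.42-fold lower in differentiation in Ctrl (log2 fold change -2.43, SE 0.25, adjusted p = 1.18e-05) and 7.13-fold lower with NAD+ (log2 fold change -2.86, SE 0.25, adjusted p = 2.73e-06). NAD+ gave 0.17 under proliferating (95% CI -0.24 to 0.58) and -0.26 under differentiation conditions (95% CI -0.94 to 0.42), and the groups overlapped in both.

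Cdkn2d encodes p19Ink4d, an inhibitor that persists in neurons of the adult brain, and lies on the minus strand of chr9:21288410-21291407. It stood at 22.58, 7.58 and 19.41 FPKM in proliferating Ctrl, 11.38, 12.93 and 20.72 in proliferating NAD+, 4.97, 4.88 and 5.10 in differentiation Ctrl, and 5.28, 6.17 and 3.89 in differentiation NAD+. Proliferating samples were spread widely, with proliferating Ctrl replicate 2 nearest to the differentiation samples. The level was 3.32-fold lower in differentiation in Ctrl (log2 fold change -1.56, SE 0.36, adjusted p = 0.00335) and 2.94-fold lower with NAD+ (log2 fold change -1.51, SE 0.36, adjusted p = 0.00389). NAD+ against Ctrl gave -0.04 (95% CI -1.07 to 0.98) and 0.01 (95% CI -0.38 to 0.40), intervals that are wide under proliferating conditions.

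Within the INK4 family the summed FPKM was 72.2 to 117 in proliferating Ctrl and 34.9 to 36.7 in differentiation Ctrl. Cdkn2c made up 36.9% to 41.9% of it in proliferating Ctrl and 15.1% to 25.4% in differentiation Ctrl, whereas Cdkn2b went from between 8.80% and 13.4% to between 28.9% and 35.4%. With NAD+ the shares were 39.0% to 42.9% and 12.6% to 20.6% for Cdkn2c, and 11.4% to 14.5% and 31.4% to 34.7% for Cdkn2b. The CIP/KIP sum stayed between 43.6 and 81.7 FPKM in all 12 samples, and Cdkn1c made up no more than 4.91% of it. Cyclins therefore held the larger summed level in all proliferating samples but replicate 1 of Ctrl, and inhibitors in all differentiation samples.

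Whether NAD+ acted differently under the 2 conditions was tested as an interaction, which was called for 0 of the 10 genes by limma, where 0.467% of all genes were called. Of the 10 genes 1, Ccnd1, had an unadjusted p under 0.05, against 15.5% of all genes. Among the genes called in that comparison 47.3% had a larger log2 value under differentiation conditions, or 74.5% after median-ratio scaling.

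Most of the G1 kinase, RB and E2F genes listed were lower in differentiation, as were Ccnd1 and Ccnd2. Of 21 G1 kinase, RB and E2F genes, 17 were lower and 1 higher in differentiation Ctrl than in proliferating Ctrl, and 19 were lower and 1 higher with NAD+, with a list median of -1.40 in Ctrl and -1.83 with NAD+ (log2). Over all genes 31.6% were lower and 25% higher in Ctrl and 37.6% and 20.8% with NAD+, at medians of -0.06 and -0.20. In Ctrl the falls were led by the E2F genes E2f2 (-4.21, adjusted p = 3.72e-08), E2f8 (-4.06, adjusted p = 1.72e-08) and E2f1 (-3.62, adjusted p = 5.13e-08). E2f2 went from 2.38 to 3.06 FPKM to 0.04 to 0.07, a level under the pseudocount. With NAD+ the largest falls were those of E2f8 (-4.62), E2f2 (-4.45) and E2f7 (-4.41). In differentiation NAD+ these stood at 0.09 to 0.13, 0.04 to 0.07 and 0 to 0.01 FPKM. Those levels are near or under the pseudocount of 0.1, so the order of the falls depends on it. Rb1, which encodes RB itself, was the one called higher. It went from 9.32 to 12.39 FPKM to 14.61 to 15.81 in Ctrl (log2 fold change 0.49, adjusted p = 0.000861) and rose by 0.43 with NAD+ (adjusted p = 0.00183).

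The kinases that D-type cyclins bind, singled out after their values were seen, both fell. Cdk4 stood at 77.40 to 90.14 FPKM in proliferating Ctrl and 31.06 to 34.74 in differentiation Ctrl (log2 fold change -1.33, adjusted p = 7.31e-07), and Cdk6 at 0.20 to 0.85 and 0.03 to 0.08 (log2 fold change -2.01, adjusted p = 0.00113). Cdk6 was low in both groups, and its differentiation Ctrl values lie under the pseudocount of 0.1, so the size of its fall depends on the pseudocount. With NAD+ Cdk4 was the gene of the list that was called under differentiation conditions, at 25.34 to 27.08 FPKM (log2 fold change -0.32, adjusted p = 0.0299). It was 1 of 18 tested there, where 6.92% of all genes were called. Over all genes, calls in that comparison fell from 1357 to between 328 and 719 with a sample left out. Cdk4 was not followed in those fits. Under proliferating conditions 0 of the 21 were called with NAD+ (0.145% of all genes), and 6 had an unadjusted p under 0.05 (15.4%). The 10 division markers, such as Ccnb1 (-6.38), Mki67 (-5.55) and Bub1 (-5.31) in Ctrl, were all lower in differentiation in Ctrl and with NAD+. For NAD+ against Ctrl 0 of them were called under either condition. An unadjusted p under 0.05 was seen in 1 under proliferating and 2 under differentiation conditions, against 15.4% and 24.2% of all genes. The median log2 fold change of the 10 markers with NAD+ was 0.18 under proliferating and 0.08 under differentiation conditions, against 0.07 and -0.08 over all genes. Mki67, 1 of the 10 and not called, ranged from 19.79 to 39.98 FPKM in proliferating Ctrl and from 39.25 to 45.36 in proliferating NAD+, so the groups overlapped.

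**Figure D4:**
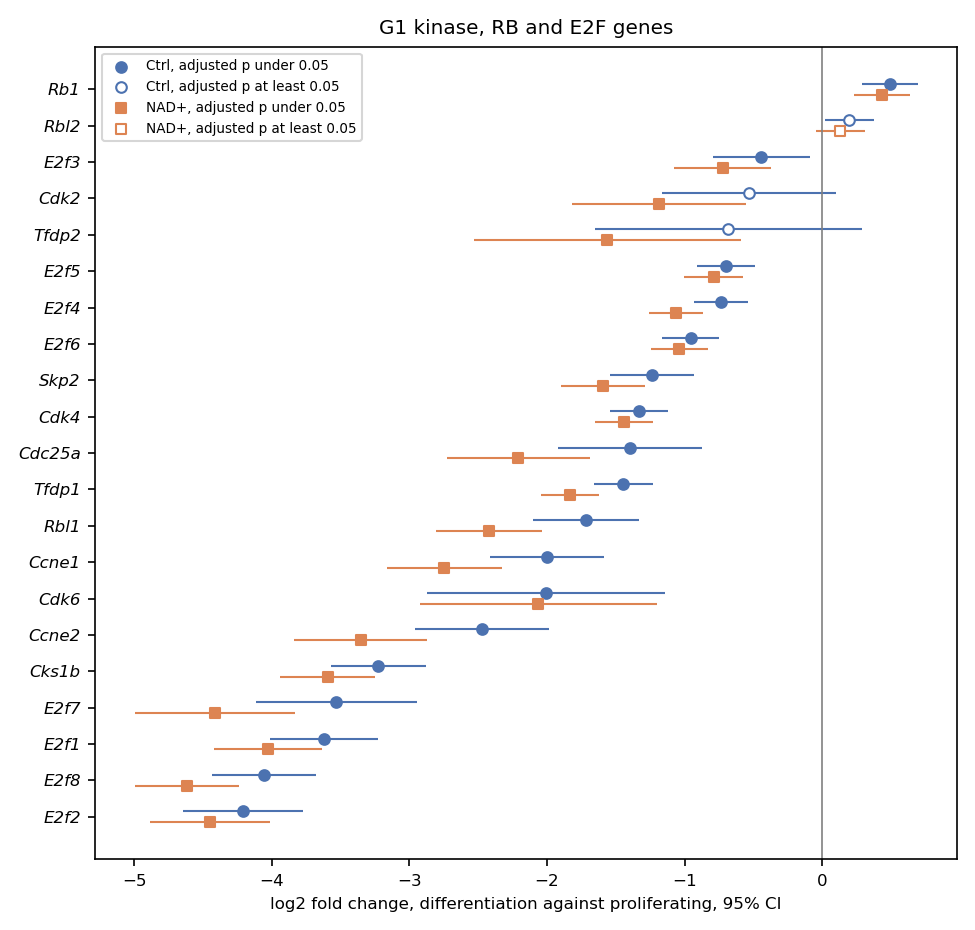
Log2 fold change of differentiation against proliferating conditions (x, 95% confidence intervals) for the 21 G1 kinase, RB and E2F genes (y), in Ctrl (circles) and with NAD+ (squares), filled where the adjusted p was under 0.05. Rb1 and Rbl2 lie above 0 and the other genes below it, down to -4.62 for E2f8.

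Patterns most like those of the 10 genes were looked up among 12927 other genes with a mean of at least 1 FPKM, by the root-mean-square difference of log2 values centred on each gene's mean over the 12 samples, where a small value means a like profile. Nearest to Ccnd1 were Top2a (0.13), Bub1 (0.17) and Cenpf (0.20), all genes of the dividing cell, against a spread of 2.73 of Ccnd1 around its own mean. Ccnd2 had Ccnd1 (0.24), Dusp6 (0.26) and Bub1 (0.26) nearest. Phlda3, a p53 target, was the second nearest to Cdkn1a at 0.16 after Pold4 (0.14), and Klhl8 (0.17) was the third. For Ccnd3 the nearest, Pot1b, lay at 0.38, against a spread of 0.64 of Ccnd3 itself, followed by Gm20605 (0.39) and Sntb2 (0.41). Nearest to Cdkn1b were Isoc2a (0.098), Smpd1 (0.11) and Plpp1 (0.11), and nearest to Cdkn1c were G0s2 (0.13), Lrrc42 (0.19) and Ppp1r1a (0.19). In the INK4 family, Ndufb1-ps (0.094), Rpl7a (0.10) and H2bc4 (0.11) came nearest to Cdkn2a, Tbc1d22a, Mxd1 and Gsto1 (each 0.14) to Cdkn2b, BC064078 (0.27), Shc4 (0.28) and the replication kinase gene Dbf4 (0.28) to Cdkn2c, and Rps2-ps8, Vwc2 (each 0.29) and Smdt1 (0.30) to Cdkn2d. The profiles span both culture conditions, so any gene with a like difference between them comes near.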

How the data were processed

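RNA-seq libraries (NEBNext Ultra kit) of 12 aNSPC samples were mapped to mm10 with Hisat2 v2.0.5, and uniquely mapped reads were counted per gene with FeatureCounts v2.0.1 by the authors, who deposited FPKM values in 2 tables, 1 for each culture condition. The program that computed FPKM is not given in the sources used here. The deposited fold change (ratio) of NAD+ over Ctrl, its log2, and a p-value and q-value per gene were not used. Of the per-sample columns, 12 were read and 0 were not. Depth per sample is unknown, so no counting error can be given.

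In R 4.3.3, limma 3.58.1 was run on log2(FPKM + 0.1) (variance trend, two-sided, minimum mean FPKM of 0.1) for 5 comparisons. NAD+ against Ctrl used the 6 samples of a condition, and the other comparisons used all 12. The exact permutation test planned for genes under the filter was not needed. The code was tested on simulated data. Alternatives were pseudocounts of 0.01 and 1, no filter or a minimum mean FPKM of 1, median-ratio scaling, quantile normalization, a replicate block, no variance trend, all 12 samples in each fit, the DEG rule (unadjusted p under 0.05 and a ratio of means above 2, with FPKM of 0 raised to 0.0001), and each sample left out. The text names all 10 genes, up to 3 rises and 3 falls called per comparison from the lists of G1 kinase, RB and E2F genes, p53 targets, regulators and division markers, and the 3 genes of nearest profile. Genes and lists were chosen with earlier results of these data known. Positions are from GENCODE M21. Python 3.11.15 with pandas 2.3.3, numpy 2.4.6 and matplotlib 3.10.9 made the tables and plots.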

Additional observations from a re-analysis of the deposited data

How the results depend on the processing

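Over the alternatives for the 10 genes in 5 comparisons, 404 log2 fold changes kept their direction and their side of the threshold, 5 became called, 5 lost their call and 6 turned direction, and with single samples left out the numbers were 314, 4, 13 and 29. The calls of Ccnd1, Ccnd2, Cdkn2a, Cdkn2c and Cdkn2d between the culture conditions were kept under all alternatives run. Under proliferating conditions the number of the 10 genes called for NAD+ went from 0 to 1 (Ccnd3) with a minimum mean FPKM of 1, with quantile normalization and with the DEG rule, and under differentiation conditions from 1 to 0 with the DEG rule. With NAD+, 5 of the 10 genes met the DEG rule between the conditions. With samples left out in turn the numbers ran from 0 to 0 and from 0 to 1 for NAD+, 5 to 7 and 6 to 8 between the conditions in Ctrl and with NAD+, and 0 to 0 for the difference of the NAD+ effects. Values that turned were not called: Cdkn1a in Ctrl (0.12, quantile), Cdkn2b with NAD+ (0.17, median-ratio, and 0.30, quantile), and the difference of the NAD+ effects of Cdkn2a (0.00025 with a pseudocount of 0.01, 0.15, median-ratio, and 0.066, quantile). Leaving out samples gave ranges across 0 for NAD+ under proliferating conditions in Cdkn2c (-0.0037 to 0.28) and Cdkn2d (-0.53 to 0.25), under differentiation conditions in Ccnd1 (-0.026 to 0.12), Cdkn1b (-0.17 to 0.029) and Cdkn2d (-0.13 to 0.19), between the conditions in Ctrl in Ccnd3 (-0.24 to 0.34) and Cdkn2b (-0.092 to 0.33), and for the difference of the NAD+ effects in Cdkn1b (-0.0075 to 0.23), Cdkn2a (-0.14 to 0.094) and Cdkn2d (-0.24 to 0.54). The cause of these changes was not tested.

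Over all genes, 27 were called for NAD+ under proliferating conditions, against 9 with no filter, 75 with a minimum mean FPKM of 1, 59 with quantile normalization, 0 without the variance trend, 735 with all 12 samples fitted and 0 to 36 with a sample left out. Under differentiation conditions 1357 were called, against 619 without the trend and 328 to 719 with a sample left out. List genes outside the 10 were not followed in these fits, so calls near the threshold, such as those of Cdk4, Fas and Klf4, may not hold. The difference of the NAD+ effects had 91, against 139 with a pseudocount of 1, 56 without the trend and 12 to 195 with a sample left out. Same-numbered samples correlated around their group means at 0.111, 0.0215 and 0.0529 under proliferating and 0.041, 0.0432 and 0.0257 under differentiation conditions, so the numbers were not taken to pair the samples. Each differentiation sample, but not each proliferating one, correlated best with its own number. Fitting the sample number as a replicate block, the numbers of the 10 genes called stayed at 0 and 1, with Cdkn1c at an adjusted p of 0.0524 and Cdkn1a at 0.0424 under differentiation conditions, at 5 and 8 between the conditions, and at 0 for the difference, while 0, 758 and 26 of all genes were called for NAD+ under each condition and for the difference. The block changed no other call of the 10 genes. Unknown depth limits what can be said of values near 0.01 FPKM, and 3 samples a group limit all tests.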

Other observations

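Known regulators of the 10 genes, a list of 20 of which 19 were tested, moved both ways between the culture conditions: 9 were higher and 7 lower in differentiation Ctrl (25% and 31.6% of all genes), and 10 higher and 8 lower with NAD+ (20.8% and 37.6%). The largest rises in Ctrl were those of the stress factor gene Cebpb (log2 fold change 2.58), of Cbx7, a Polycomb gene known to repress the Cdkn2a locus (2.00), and of the growth inhibitor gene Tgfb1 (1.01), and the largest falls were those of the Notch target Hes1 (-2.19), of Ezh2, the Polycomb methyltransferase gene (-1.59), and of Mycn (-1.51). With NAD+ the rises were led by Cbx7 (2.20), Cebpb (2.15) and Cebpd (1.86) and the falls by Cebpa (-2.08), Hes1 (-1.93) and Ezh2 (-1.55). Cbx7 went from 0.55 to 0.95 FPKM in proliferating Ctrl to 3.22 to 3.67 in differentiation Ctrl and Ezh2 from 9.36 to 10.99 to 2.85 to 3.78. Bmi1, the other Polycomb gene of the list, named after its values were seen, went from 24.97 to 30.76 to 16.88 to 18.75 FPKM (log2 fold change -0.66, adjusted p = 5.3e-05). Under differentiation conditions 2 of the 19 were called higher with NAD+, against 2.27% of all genes. Klf4, a known activator of Cdkn1a (log2 fold change 0.80, adjusted p = 0.0253), went from 0.82 to 0.97 FPKM in Ctrl to 1.45 to 1.79. Cebpd (0.80, adjusted p = 0.00494) went from 7.55 to 8.53 FPKM to 13.42 to 14.43. Cdkn1a had a log2 fold change of -0.34 there and was not called. Under proliferating conditions 0 of the 19 were called for NAD+ by limma (0.145% of all genes), and 4 had an unadjusted p under 0.05 (15.4%). Adjusted p-values are from limma over all genes tested.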
